A study of Homo sapiens with 16 samples.

Results

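The genes described are 10 inducible early genes of 4 small families: the nuclear receptor genes NR4A1, NR4A2 and NR4A3, the mRNA decay factors ZFP36, ZFP36L1 and ZFP36L2, the immediate-early response genes IER2 and IER5, and the BTG genes BTG1 and BTG2. They were taken as a fixed list of gene names, and all 10 were found among the 35052 genes with a matched transcript and passed the low-count filter that left 17559 genes. The cells were K562, an established human leukaemia line with erythroid features, labelled wild type. Every group was labelled as given 25 nM PMA (phorbol 12-myristate 13-acetate, an activator of protein kinase C), with early times of 0.5 and 1.5 h, middle times of 3 and 6 h and late times of 24, 48 and 72 h, and the 0 h libraries are the control. PMA drives K562 toward a megakaryocyte-like state, and the medium was replaced after 24 h and again after 48 h. RNA depleted of ribosomal RNA was sequenced in 2 libraries per time point, 16 in all. The labels do not say whether the 2 libraries came from separate cultures, so p-values measure the spread between these libraries, which may be technical.

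NR4A1, NR4A2 and NR4A3 (also known as Nur77, Nurr1 and Nor1) are orphan nuclear receptors, whose activity is set largely by how much of them the cell makes, and their genes are transcribed within minutes of many stimuli. The ZFP36 proteins are zinc finger proteins that bind AU-rich elements in the 3′ UTR of cytokine and early-response mRNAs and bring in the CCR4-NOT complex, which removes the poly(A) tail so that the mRNA is degraded. BTG1 and BTG2 are antiproliferative proteins that bind the deadenylase subunits of the same complex. IER2 and IER5 are related nuclear proteins, and IER5 is known to bind the phosphatase PP2A and the heat shock factor HSF1. In megakaryocyte differentiation driven by PMA, protein kinase C and the kinases downstream of it are the known route to such early genes.

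Library totals were 27285773 to 54056289 estimated reads, and 2 libraries of the same time point correlated at 0.9845 to 0.9925 (Pearson r of log2 CPM over genes). Levels are given in TPM, which is scaled by transcript length, and changes as log2 fold changes ± standard error from edgeR's quasi-likelihood test, called at a Benjamini-Hochberg adjusted p under 0.05 over all genes tested. Of the K562 markers of the erythroid side, HBG2 had a mean of 3148 TPM at 0 h and 2614 TPM at 72 h, HBG1 of 679 and 672 TPM, GATA1 of 148 and 158 TPM and TAL1 of 105.3 and 118.5 TPM. The mean of HBE1 was 741 TPM at 0 h and 362 TPM at 72 h, that of HBZ 125 and 30.1 TPM and that of KLF1 54.6 and 3.13 TPM. The 4 megakaryocyte markers (ITGA2B, ITGB3, THBS1 and CD9) summed to 36.6 and 44.9 TPM at 0 h and to 1755 and 1836 TPM at 72 h. ITGA2B made up most of the sum at 0 h and changed little, with means of 38.4 TPM at 0 h and 43.3 at 72 h. The means of ITGB3 (0.661 and 457 TPM), THBS1 (1.09 and 1230) and CD9 (0.587 and 64.8) were higher at 72 h. Of the T cell markers CD3E and CD2 stayed under 1 TPM in every library, as did the B cell marker MS4A1 and the monocyte marker CD14. CD3D (26.5 TPM at 0 h, 64.9 at 72 h), COL1A1 (5.43 and 81.8) and EPCAM (55.7 and 24.6) were present, and their part in the results was not tested. In bulk RNA, fewer cells of a type and less RNA per cell cannot be told apart.

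All 10 genes were higher than at 0 h from 1.5 h to 72 h, with different time courses. NR4A1, IER2 and BTG2 rose by 0.5 h. The mean TPM was highest after 1.5 h for NR4A3, ZFP36, IER2 and BTG1, after 3 h for BTG2, after 6 h for NR4A1, NR4A2, ZFP36L1 and IER5, and after 72 h for ZFP36L2. At 0.5 h 3 of 10 were called higher and 0 lower, against 0.171% of all genes called in either direction, 0.165% higher and 0.0057% lower. That share depended on 1 library: without replicate 1 of 0 h, 3585 of 18033 genes were called at 0.5 h (30 of 17559 with it), 5 of the 10 among them, and without a low-count filter 1538 of 26879 were, with 7 of the 10. From 1.5 h on, 10 of 10 were called higher at each time. Over all genes tested, 17.1% were called at 1.5 h (9.05% higher, 8.05% lower) and 42% at 3 h (21.5% higher, 20.5% lower). The share called was 57.2% at 6 h (27.8% higher, 29.4% lower) and 58.3% at 24 h (31.7% higher, 26.6% lower). It was 54.3% at 48 h (30.2% higher, 24.1% lower) and 58.6% at 72 h (31.7% higher, 26.9% lower). The median log2 fold change of the 10 genes was 0.64 after 0.5 h, 1.58 after 1.5 h, 2.20 after 3 h, 3.47 after 6 h, 2.63 after 24 h, 2.73 after 48 h and 2.58 after 72 h, where the median of all genes tested lay between -0.03 and 0.00. With library totals as the scale that median fell to -0.12 after 1.5 h and -0.35 after 6 h, and all 10 genes kept a positive change at 1.5 to 72 h, with the calls of ZFP36L2 after 3 h and BTG1 after 24 h lost. At 0.5 h the fold change of genes with a mean log2 CPM over 3 fell with the GC content of their transcripts. Across these genes, which are not independent replicates, r was -0.761. With that trend removed from each library, NR4A1 (1.56), IER2 (1.42) and BTG2 (0.84) were still called at 0.5 h, and ZFP36 and NR4A2 were called as well.

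**Figure D1:**
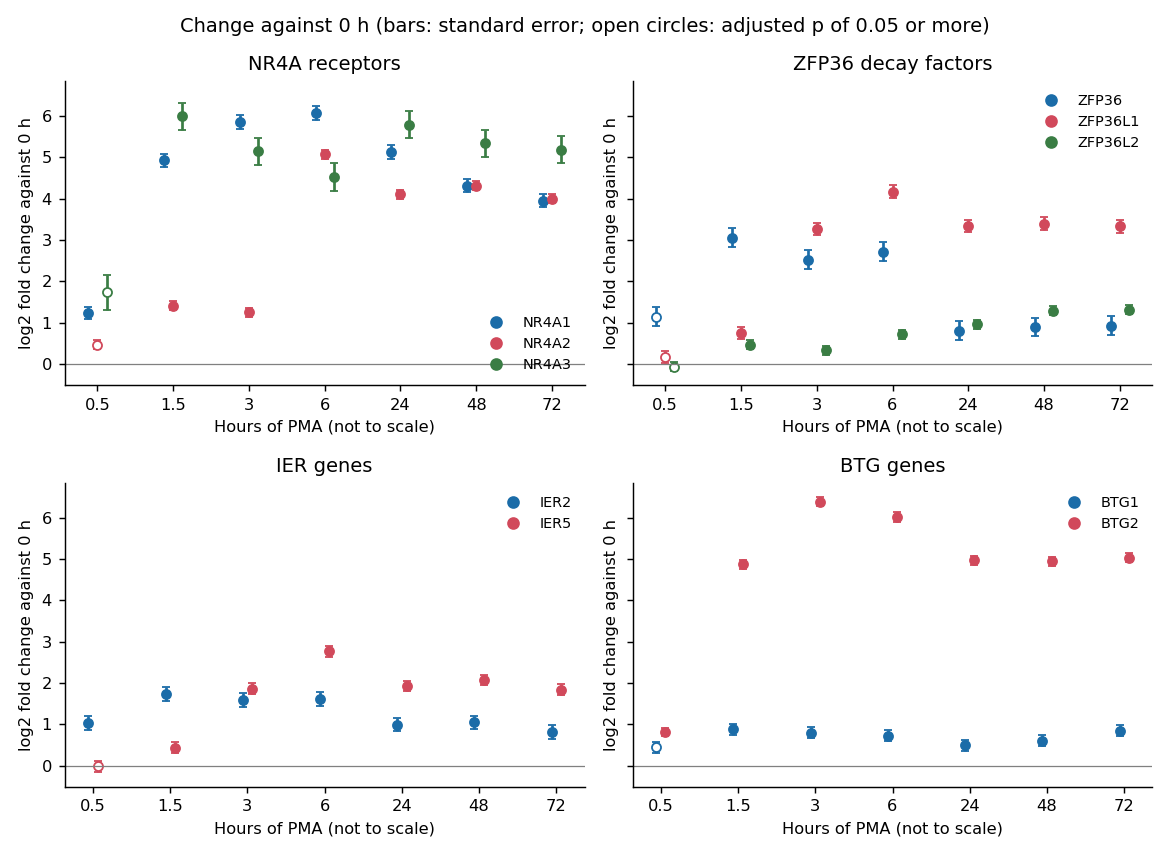
Change of each gene against 0 h at 7 times, as log2 fold change with its standard error (2 libraries against 2), in 4 panels by family. Filled circles passed the test; at 0.5 h 7 of the 10 circles are open, and from 1.5 h none is.

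NR4A1 was the most abundant of the nuclear receptors in all 16 libraries. It measured 7.27 and 6.31 TPM before PMA, 16.5 and 16.4 after 0.5 h, 242 and 211 after 1.5 h, and 387 and 359 after 3 h. It reached 400.2 and 412 TPM after 6 h and then stood at 240.3 and 261 after 24 h, 149.9 and 182 after 48 h, and 103 and 158 after 72 h. Both libraries of every later time were above both 0 h libraries, and the 6 h libraries were above all others. The log2 fold change was 1.23 ± 0.15 after 0.5 h (adjusted p = 0.0019), 6.08 ± 0.17 after 6 h (a 67.6-fold rise, adjusted p = 5.91e-12) and 3.95 ± 0.16 after 72 h (adjusted p = 9.93e-11). The fall was stepwise: by 0.96 ± 0.14 on the log2 scale from 6 to 24 h (adjusted p = 4.88e-05) and by 0.81 ± 0.14 from 24 to 48 h (adjusted p = 0.00136).

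NR4A2, which is also needed for dopamine neurons, rose late and in a single large step. Its level was 3.29 and 3.95 TPM before PMA, 4.87 and 5.04 after 0.5 h, 9.09 and 8.65 after 1.5 h, and 6.77 and 6.82 after 3 h. At 6 h it was 96.9 and 93.3 TPM, and it held 58.1 and 55.7 after 24 h, 70.3 and 72.6 after 48 h, and 54.9 and 63.4 after 72 h. The libraries fall into a low set up to 3 h and a high set from 6 h, with no overlap. The step from 3 to 6 h was 3.82 ± 0.10 on the log2 scale (14.2-fold, adjusted p = 1.01e-10), and it ranked 107 among the 17559 genes tested. Its rise by 1.5 h was smaller but passed the test (1.41 ± 0.11, adjusted p = 1.09e-06).

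NR4A3 was the least abundant of the 10 at all 8 times. It had 4 and 8 reads before PMA (0.0545 and 0.0669 TPM), 0.212 and 0.370 TPM after 0.5 h, 4.06 and 3.05 after 1.5 h, and 1.45 and 1.71 after 3 h. It was 1.08 and 0.903 TPM after 6 h, 3.04 and 2.75 after 24 h, 2.50 and 2.45 after 48 h, and 2.30 and 2.06 after 72 h. The course had 2 rises with a dip between them. In TPM the 3 and 6 h libraries lay under all libraries of 1.5 h and of 24 to 72 h. In CPM, scaled as in the tests, the 3 h libraries (6.36 and 7.24) overlapped those of 72 h (7.64 and 6.34). In proportion its rise by 1.5 h was the largest of the 10 (6.00 ± 0.33, adjusted p = 5.64e-08), and it rose again from 6 to 24 h by 1.26 ± 0.23 (adjusted p = 0.000338), when NR4A1 and NR4A2 fell. The dip was less firm: the fall from 1.5 to 3 h (-0.85 ± 0.22, adjusted p = 0.00977) had an adjusted p of 0.101 without replicate 1 of 1.5 h and 0.0677 without replicate 1 of 3 h. The fall from 3 to 6 h (-0.62 ± 0.23, adjusted p = 0.043) lost its call without any of the 4 libraries, with an adjusted p of 0.0605 to 0.224.

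The make-up of the receptor family changed with these courses. NR4A1 made up 68.5 and 61.1% of the summed NR4A TPM before PMA, 97.9 and 97.7% after 3 h, and 64.3 and 70.7% after 72 h. NR4A2 made up 31.0 and 38.3% before PMA, 1.71 and 1.85% after 3 h, and 34.3 and 28.4% after 72 h. NR4A3 made up at most 1.69%. At 72 h the shares of NR4A1 and NR4A2 were thus back near those of 0 h at a family total of 160.3 and 223 TPM, against 10.6 and 10.3 TPM at 0 h.

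**Figure D2:**
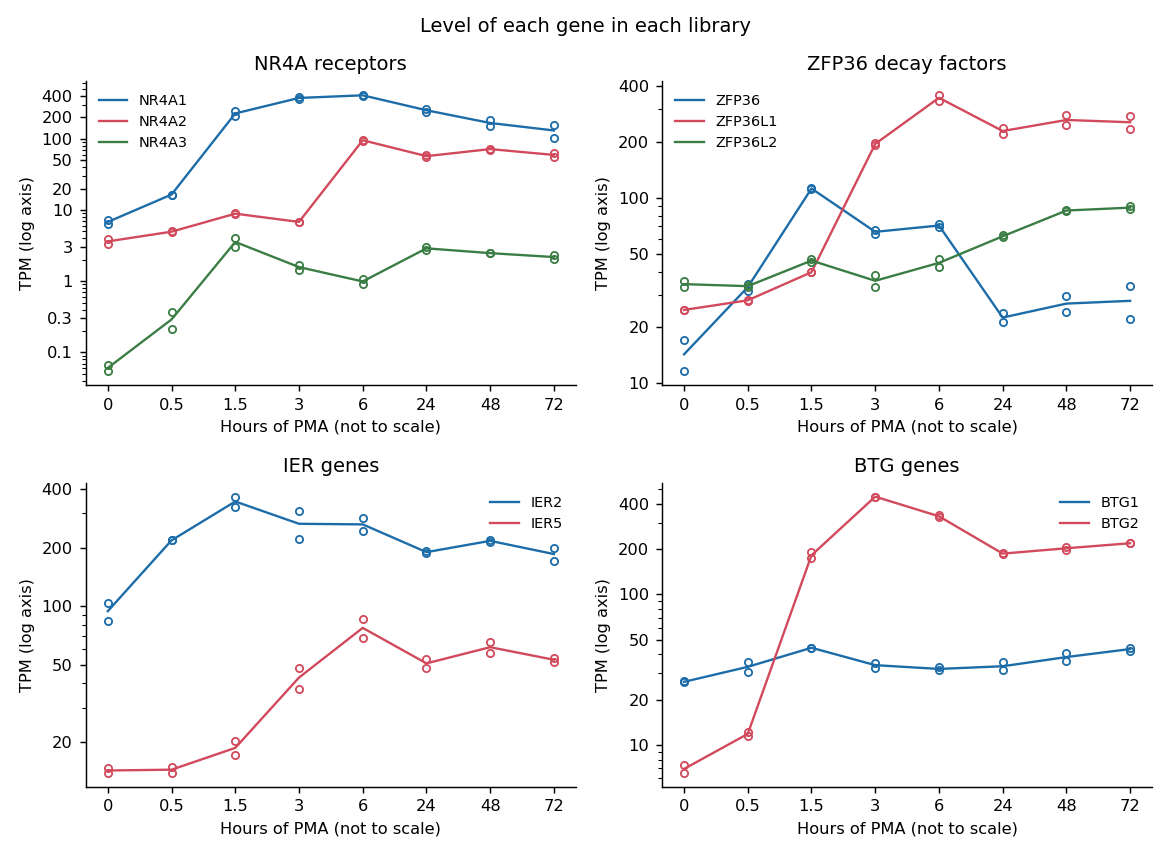
TPM of each gene in each of the 16 libraries (open circles) with the line through the mean of 2 libraries, on a log axis, by hours of PMA. NR4A2 steps up between 3 and 6 h, ZFP36 is highest at 1.5 h and ZFP36L1 at 6 h.

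The NR4A1 reads also moved between transcripts. On GRCh38 chromosome 12 the gene spans 52022832 to 52059507 on the plus strand. Transcript NR4A1-206 starts upstream at 52037715 and has 8 exons, and NR4A1-204 starts downstream at 52051402 and has 7. The start and exons are those of GENCODE release 29, which holds another version of NR4A1-204 than the one counted. Transcripts with an upstream start took 92.1 and 93.0% of the gene's estimated reads before PMA, 44.5 and 47.3% after 0.5 h, 9.76 and 10.4% after 1.5 h, and 6.76 and 7.14% after 6 h. Those with the downstream start took 3.38 and 2.53% before PMA, 59.4 and 57.5% after 1.5 h, and 80.7 and 80.7% after 6 h, and stayed at 79.0 to 85.9% from 24 to 72 h. In TPM the upstream transcripts rose from 5.39 and 5.08 at 0 h to 30.6 and 29.5 at 6 h, and the downstream ones from 1.40 and 1.07 to 337 and 350.3. The 0 h and 6 h libraries did not overlap in either class. The upstream class also holds retained-intron and short transcripts. Within it, NR4A1-206 went from 4.40 and 4.30 TPM at 0 h to 11.1 and 10.4 at 6 h. The retained-intron transcript NR4A1-205 went from 0 and 0 TPM to 13.4 and 11.4. At 72 h the downstream transcripts were at 83.2 TPM in one library and 129 TPM in the other, a wider gap than at 6 h.

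At 0.5 h a further class stood out. Transcripts annotated as starting inside the gene body, among them NR4A1-215 (a retained-intron transcript from 52053418, with 45.3 and 42.1% after 0.5 h), held 46.0 and 42.3% of the NR4A1 reads after 0.5 h, 30.9 and 32.1% after 1.5 h and 6.20 to 7.81% from 24 to 72 h. At 0 h they held 4.56 and 4.51%. The libraries were made from total RNA, which contains unspliced transcripts. AC025259.3 overlaps NR4A1 on the opposite strand, and since it is not given whether counting used strand, their reads cannot be told apart there. The split among transcripts is the authors' estimate, with no test here.

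**Figure D3:**
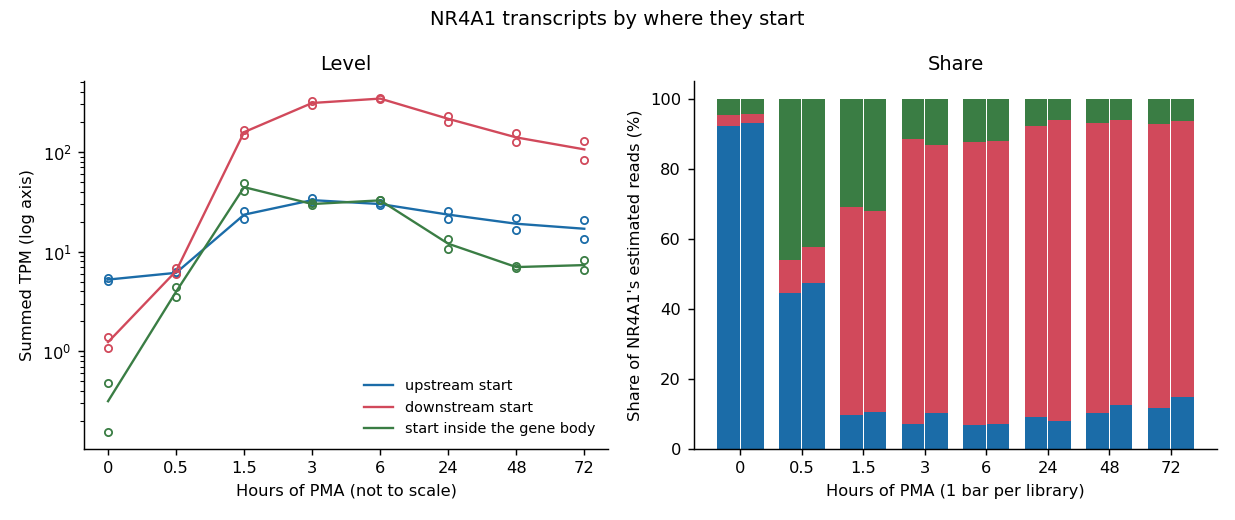
NR4A1 transcripts grouped by start: summed TPM per library on a log axis with the line through the mean (left) and share of the gene's estimated reads per library (right). The upstream class leads at 0 h with 92.1 and 93.0% of reads and the downstream class from 1.5 h on.

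NR4A2 had a like, smaller shift. The upstream-start transcript NR4A2-204 held 30.7 and 45.5% of its reads before PMA and 9.36 and 11.3% after 6 h, and the transcripts of the main start held 60.3 and 36.1% before PMA and 81.0 and 77.7% after 6 h. The 2 libraries of 0 h differed more from each other than those of 6 h, with 196 and 239 reads behind them. The split of NR4A3 among its 4 transcripts did not hold between libraries of the same time (NR4A3-203 took 0 and 100% at 0 h and 83.5 and 43.6% at 24 h), so it is not described further.

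Promoter sequence from RefSeq (GRCh38.p14, 250 bases before to 50 after the start) was found for 8 of the 10 genes, in 10 windows. Searched on both strands were TGACGTCA (the cyclic AMP response element, CRE), its core TGACG, which lies within it, the AP-1 motif TGAGTCA, the NR4A motif AAAGGTCA, the EGR motif GCGGGGGCG, TATAAA and the serum response CArG box. NR4A3 held 4 copies of TGACG, at 109, 91, 83 and 25 bases before the start. The capitals mark the first 3 (CGTCA is TGACG on the other strand), at chr9:99821765-99821854, plus strand.
NR4A3: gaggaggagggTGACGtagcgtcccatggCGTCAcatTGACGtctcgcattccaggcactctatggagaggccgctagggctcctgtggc
Of all 35116 promoters of this length, 24.55% held TGACG at least once. Of the 8 genes, 5 did in at least 1 window (NR4A3, ZFP36L1, IER2, BTG1 and BTG2). The share is per window and the count per gene, with 2 windows each for NR4A1 and ZFP36L1. The 8-base CRE, in 1.85% of promoters, was found in 1 of the 2 ZFP36L1 windows. Transcripts that start inside that window took 0.0% of the ZFP36L1 reads, and those that start inside the other took 0.06%. AP-1, NR4A and CArG motifs, found in 4.95, 1.22 and 1.29% of promoters, were in none of the 10 windows. BTG1 held TATAAA 33 bases before the start, a motif of 11.53% of promoters. Neither NR4A1 window covers the downstream start at 52051402.

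ZFP36 (tristetraprolin) and ZFP36L1 exchanged the lead among the decay factors. ZFP36 measured 11.6 and 17.0 TPM before PMA, 31.5 and 34.4 after 0.5 h, 112 and 112 after 1.5 h, and 63.9 and 67.1 after 3 h. It was 69.2 and 72.5 TPM after 6 h, 21.3 and 23.9 after 24 h, 24.1 and 29.6 after 48 h, and 22.3 and 33.4 after 72 h. The 1.5 h libraries were above all others, and those of 24 to 72 h lay between the 0 h and the 0.5 h libraries with a single one, 33.4 TPM at 72 h, inside the 0.5 h range. The rise was 3.06 ± 0.23 at 1.5 h (8.33-fold, adjusted p = 1.24e-06), the fall from 6 to 24 h was 1.90 ± 0.22 in size (3.74-fold lower, adjusted p = 6.85e-06), and 0.93 ± 0.22 above 0 h was left at 72 h (adjusted p = 0.00272). At 0.5 h ZFP36 was 2.21-fold higher and did not pass (1.14 ± 0.22, adjusted p = 0.0864). It passed there with the GC trend removed (1.40, adjusted p = 0.00183) and with DESeq2 (1.14, adjusted p = 4.86e-05). The rise at 24 h (0.80 ± 0.22, adjusted p = 0.007) did not pass without replicate 1 of 0 h (0.50, adjusted p = 0.0783) or without replicate 2 of 24 h (0.58, adjusted p = 0.0825).

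ZFP36L1, a paralog with the same pair of zinc fingers, measured 24.7 and 24.9 TPM before PMA, 28.1 and 27.9 after 0.5 h, 39.8 and 39.6 after 1.5 h, and 197 and 193 after 3 h. It was 333 and 359 TPM after 6 h, 219.5 and 238 after 24 h, 247 and 278 after 48 h, and 234 and 277 after 72 h. The 0 to 1.5 h libraries were at most 39.8 TPM and the later ones at least 193. The step from 1.5 to 3 h was 2.52 ± 0.15 (5.74-fold, adjusted p = 2.77e-08), the change by 6 h was 4.16 ± 0.16 (17.9-fold, adjusted p = 6.92e-11), and 3.33 ± 0.15 was left at 72 h (adjusted p = 3.53e-10).

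ZFP36L2, the remaining paralog, was the slowest. It measured 32.9 and 35.6 TPM before PMA, 33.9 and 32.9 after 0.5 h, 46.9 and 44.8 after 1.5 h, and 38.2 and 33.2 after 3 h. It was 46.9 and 42.2 TPM after 6 h, 62.7 and 61.3 after 24 h, 84.9 and 85.8 after 48 h, and 86.5 and 90.4 after 72 h. The 0, 0.5 and 3 h libraries overlapped, and from 24 h all lay above those of 0 to 6 h. The change was 0.96 ± 0.11 at 24 h (adjusted p = 5.88e-06) and 1.31 ± 0.11 at 72 h (2.48-fold, adjusted p = 2.37e-07). Its earlier rises were small: 0.47 ± 0.11 at 1.5 h (adjusted p = 0.0124), with an adjusted p of 0.0524 and 0.0903 without replicate 1 or 2 of 1.5 h, and 0.33 ± 0.11 at 3 h (adjusted p = 0.0268). The latter was 0.21 without replicate 1 of 0 h (adjusted p = 0.183), 0.18 without replicate 1 of 3 h (adjusted p = 0.257) and 0.05 with library totals as the scale (adjusted p = 0.693).

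As shares of the summed ZFP36 family TPM, ZFP36L2 led before PMA with 47.5 and 45.9%, ZFP36 after 1.5 h with 56.3 and 57.1%, and ZFP36L1 from 3 h on, with 65.9 and 65.8% after 3 h and 68.2 and 69.1% after 72 h. ZFP36 itself made up 6.51 and 8.33% at 72 h. The family total rose from 69.2 and 77.6 TPM before PMA to 449 and 473 TPM after 6 h and was 342 and 401 TPM after 72 h.

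**Figure D4:**
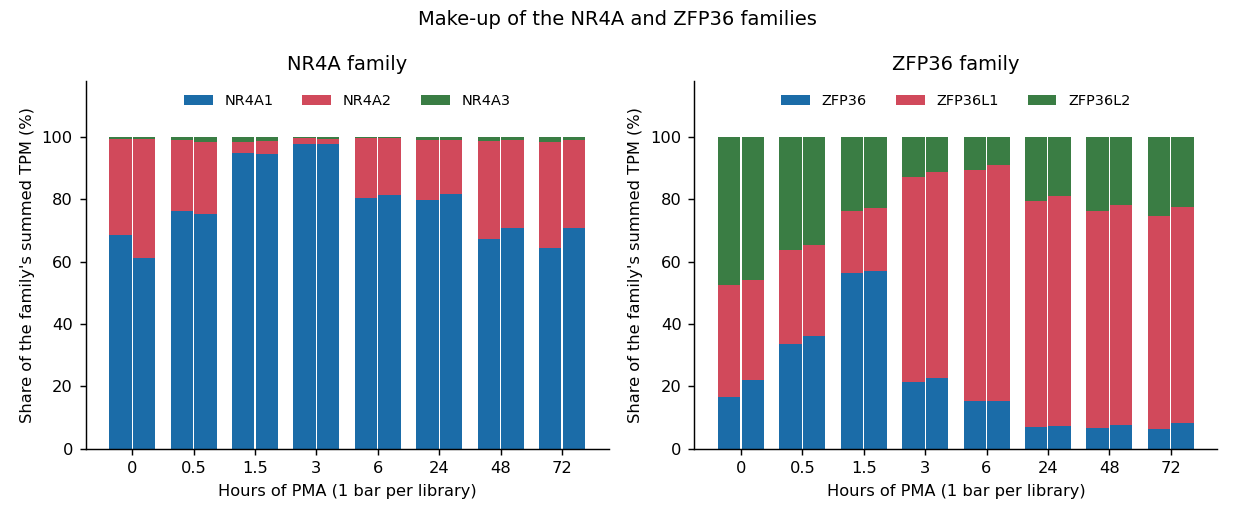
Share of each gene in the summed TPM of its family, 1 bar per library and 2 bars per time, for the NR4A (left) and ZFP36 (right) families. ZFP36L2 is the largest share at 0 h, ZFP36 at 1.5 h and ZFP36L1 from 3 h.

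The 3 decay factors carry, in their own 3′ UTRs, the element that the family binds. The heptamer TATTTAT was found 3 times in the 3′ UTR of ZFP36, ZFP36L1 and ZFP36L2 each (GENCODE release 29 transcripts on GRCh38), and 1 copy in each lies within the nonamer TTATTTATT. Among 3′ UTRs within 10% of the same length, 1.4, 5.4 and 5.4% held at least as many heptamers as ZFP36, ZFP36L1 and ZFP36L2. The nonamer sites are shown with the heptamer in capitals, since they are the family's known binding sequence, beside 1 of the 3 overlapping nonamers of IER5 and the single heptamer of BTG2. They lie at chr19:39409199-39409221 (plus strand, ZFP36 exon 2), chr14:68788080-68788102 (minus, ZFP36L1 exon 2), chr2:43223451-43223473 (minus, ZFP36L2 exon 2), chr1:181092450-181092472 (plus, the only exon of IER5) and chr1:203307531-203307553 (plus, BTG2 exon 2).
ZFP36: gacgacttTATTTATtctaatat
ZFP36L1: tgttggatTATTTATtttagaaa
ZFP36L2: atttaactTATTTATtatcttgt
IER5: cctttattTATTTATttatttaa
BTG2: tgaagagcTATTTATatatatta
The heptamer was in 7 of the 10 genes (not in NR4A1, NR4A3 and IER2) and in 26.8% of 17290 genes with an expressed coding transcript. IER5 had 4 copies, and NR4A2, BTG1 and BTG2 had 1 each, a number that 31.6, 63.6 and 43.6% of 3′ UTRs of like length reach. A match is a description of the letters, and binding was not measured.

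IER2 was the most abundant of the 10 at 0, 0.5 and 1.5 h. It measured 84.2 and 104 TPM before PMA, 218 and 218 after 0.5 h, 366 and 325 after 1.5 h, and 309.9 and 221 after 3 h. It was 284 and 243 TPM after 6 h, 191 and 188 after 24 h, 219 and 215 after 48 h, and 171 and 199.9 after 72 h. All later libraries were above both 0 h libraries, and in TPM the 1.5 h libraries were above the rest. The 2 libraries of 3 h lay far apart. In CPM, scaled as in the tests, they were at 514 and 345, on either side of the 1.5 h libraries (488 and 470). The step from 1.5 to 3 h did not pass (-0.16 ± 0.16, adjusted p = 0.555). The change was 1.04 ± 0.17 after 0.5 h (adjusted p = 0.0204), 1.74 ± 0.17 after 1.5 h (3.34-fold, adjusted p = 1.78e-05) and 0.81 ± 0.17 after 72 h (adjusted p = 0.000834). At 0.5 h the call was lost without replicate 1 of 0.5 h (adjusted p = 0.146) or replicate 2 of 0.5 h (adjusted p = 0.181), with values of 1.06 and 1.02.

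The reads of IER2 shifted between its transcripts too. The single-exon transcript IER2-203 held 51.0 and 45.2% of them before PMA, 6.11 and 6.43% after 6 h, and 28.0 and 26.0% after 72 h. In TPM it stayed between 11.1 and 41.4 in all libraries, while the 2-exon transcripts went from 48.8 and 66.1 at 0 h to 335 and 297.5 at 1.5 h. AC011446.2 overlaps IER2 on the opposite strand, with the limit given for NR4A1.

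IER5 rose later than IER2. It measured 13.9 and 14.6 TPM before PMA, 14.9 and 13.8 after 0.5 h, 20.1 and 17.1 after 1.5 h, and 48.2 and 37.6 after 3 h. It was 86.0 and 68.5 TPM after 6 h, 53.6 and 47.9 after 24 h, 65.5 and 57.4 after 48 h, and 54.1 and 51.7 after 72 h. The 0 and 0.5 h libraries overlapped, and both 6 h libraries were above all others. The change was 1.87 ± 0.13 after 3 h (adjusted p = 8.09e-08), 2.77 ± 0.13 after 6 h (6.81-fold, adjusted p = 7.46e-10) and 1.84 ± 0.13 after 72 h (adjusted p = 3.27e-08). The small rise at 1.5 h (0.43 ± 0.13, adjusted p = 0.0335) did not pass when any of the 4 libraries was left out, with an adjusted p of 0.0643 to 0.167.

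BTG2, an antiproliferative gene also induced by p53, had the largest fitted rise of the 10. It measured 6.51 and 7.34 TPM before PMA, 11.5 and 12.1 after 0.5 h, 190.3 and 174 after 1.5 h, and 446 and 447 after 3 h. It was 336 and 326 TPM after 6 h, 188 and 186 after 24 h, 208 and 198 after 48 h, and 218 and 219.5 after 72 h. The 2 libraries of each time were close, the 3 h libraries were above all others, and from 24 to 72 h the level stayed between 186 and 219.5 TPM. The change was 0.82 ± 0.10 after 0.5 h (adjusted p = 0.00235), 6.39 ± 0.12 after 3 h (83.8-fold, adjusted p = 6.82e-13) and 5.03 ± 0.11 after 72 h (32.7-fold, adjusted p = 4.57e-13). By fold change at 3 h it ranked 127 among the genes tested. The call at 0.5 h was lost when only the libraries of 0 and 0.5 h were fitted (adjusted p = 0.258).

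The BTG2 promoter held the EGR motif GCGGGGGCG 151 bases before the start and TGACG at 210 bases, both in capitals below (chr1:203305299-203305383, plus strand). The EGR motif was in 5.07% of all promoters and in no other window of the 8 genes.
BTG2: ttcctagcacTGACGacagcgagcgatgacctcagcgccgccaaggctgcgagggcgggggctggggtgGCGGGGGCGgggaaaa
EGR1 is itself a PMA-induced early gene. It had a mean of 146 CPM at 0 h and 3516 CPM at 6 h (log2 fold change 4.59 ± 0.22, adjusted p = 5.88e-10). Whether EGR1 binds this motif or acts on BTG2 was not tested.

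BTG1 moved least at its peak. It measured 26.5 and 26.0 TPM before PMA, 35.7 and 30.4 after 0.5 h, 44.3 and 44.2 after 1.5 h, and 35.3 and 32.5 after 3 h. It was 32.7 and 31.2 TPM after 6 h, 35.3 and 31.3 after 24 h, 40.7 and 36.0 after 48 h, and 44.3 and 42.4 after 72 h. All libraries after 0 h lay above both 0 h libraries, with nearly the same level at 1.5 and 72 h and overlap among the times between. The change was 0.88 ± 0.14 after 1.5 h (1.84-fold, adjusted p = 0.000832), 0.49 ± 0.13 after 24 h (adjusted p = 0.00672) and 0.85 ± 0.14 after 72 h (adjusted p = 0.000103). The 24 h call did not hold without replicate 2 of 0 h (0.33, adjusted p = 0.0749), without replicate 2 of 24 h (0.46, adjusted p = 0.0508) or with library totals as the scale (0.24, adjusted p = 0.109). BTG1 overlaps LINC01619 on the same strand and AC025164.1 on the other. BTG2 made up 19.7 and 22.0% of the BTG1 and BTG2 TPM at 0 h and 92.7 and 93.2% at 3 h.

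The order of the genes by TPM turned over within hours. At 0 h it ran IER2, ZFP36L2, BTG1, ZFP36L1, ZFP36, IER5, BTG2, NR4A1, NR4A2, NR4A3, and only the neighbours ZFP36 and IER5, and BTG2 and NR4A1, overlapped between libraries. At 3 h BTG2 and NR4A1 led, followed by IER2 and ZFP36L1. At 72 h the order was ZFP36L1, BTG2, IER2, NR4A1, ZFP36L2, NR4A2, IER5, BTG1, ZFP36, NR4A3, with no overlap between neighbours. The early and late levels were compared directly, 72 h against 1.5 h, where 57.2% of all genes were called, 31% higher at 72 h and 26.2% lower. NR4A2, ZFP36L1, ZFP36L2 and IER5 were higher at 72 h and NR4A1, NR4A3, ZFP36 and IER2 were lower. BTG1 (-0.03 ± 0.13, adjusted p = 0.861) and BTG2 (0.16 ± 0.09, adjusted p = 0.153) did not pass in either direction.

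Step by step, 8 of 10 genes rose from 0.5 to 1.5 h (5.77% of all genes called, 4.11% higher and 1.67% lower), and the exceptions were IER5 (0.45 ± 0.13, adjusted p = 0.0574) and BTG1 (0.44 ± 0.13, adjusted p = 0.0819). With the replicate number as a block both passed (adjusted p = 0.0389 for IER5 and 0.0152 for BTG1), as they did with DESeq2 and with the GC trend removed. The ZFP36L1, ZFP36L2 and IER2 calls in this step were lost without any 1 of the 4 libraries, which left 5. From 1.5 to 3 h NR4A1, ZFP36L1, IER5 and BTG2 rose and NR4A3 fell (25.1% called, 13% higher and 12.1% lower). With library totals as the scale, which lowers the median of all genes in this step to -0.15, 4 rose and 4 fell, the latter now with NR4A2, ZFP36 and ZFP36L2. From 3 to 6 h NR4A2, ZFP36L1, ZFP36L2 and IER5 rose and NR4A3 and BTG2 fell (41.2% called, 19% higher and 22.1% lower). The ZFP36L2 call was lost without replicate 2 of 3 h (adjusted p = 0.128) or replicate 2 of 6 h (adjusted p = 0.0532). The BTG2 call was lost without replicate 1 of 6 h (adjusted p = 0.112) and with only those time points fitted (adjusted p = 0.0607). With the GC trend removed NR4A1 and IER2 rose in this step too, which makes 8 calls, and with the block added ZFP36 did as well, which makes 9. From 6 to 24 h 7 of 10 fell and NR4A3 rose (56.6% called, 30.8% higher and 25.8% lower), while ZFP36L2 (0.24 ± 0.11, adjusted p = 0.0753) and BTG1 (-0.23 ± 0.13, adjusted p = 0.153) did not pass. From 24 to 48 h NR4A1 fell (15% called, 8.88% higher and 6.12% lower) and the other 9 did not pass. With library totals as the scale NR4A2 and ZFP36L2 rose in this step too, which makes 2 higher and 1 lower. From 48 to 72 h edgeR called 0 of 10 (1.47% called, 1.14% higher and 0.325% lower), DESeq2 also called 0, and NR4A1 and NR4A2 had an unadjusted p under 0.05.

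For the machinery that the ZFP36 and BTG proteins work with, changes were smaller and mixed. Of 15 tested genes of the CCR4-NOT deadenylase and the BTG and TOB relatives, 5 were higher and 4 lower at 6 h, and 4 higher and 3 lower at 72 h. That is 60% of the list at 6 h and 46.7% at 72 h, against 57.2 and 58.6% of all genes. Their median log2 fold change was 0.00 at 6 h and 0.04 at 72 h. CNOT1, the scaffold of the complex, fell from 602 ± 3.58 CPM at 0 h to 409 ± 27.0 CPM at 72 h (SD, n = 2; log2 fold change -0.56 ± 0.08, adjusted p = 5.28e-05). TNKS1BP1, a subunit of the complex, was 2.84-fold lower at 3 h (adjusted p = 2.53e-07) and 2.56-fold higher at 24 h (adjusted p = 2.38e-07). Of 21 decapping and exonuclease genes, 9 were higher and 8 lower at 6 h, 81% of the list against 57.2% of all genes, with a median of 0.11. DDX6, a decapping activator, rose most (1.15 ± 0.11, adjusted p = 9.41e-07), and the exosome subunit EXOSC5 fell most (-2.11 ± 0.19, adjusted p = 4.23e-07). Of 14 other binders of AU-rich or stem-loop elements, 7 were higher and 3 lower at 6 h, 71.4% of the list against the same 57.2% (median 0.26). ZC3H12C, of the Regnase family, rose by 2.14 ± 0.13 (adjusted p = 1.02e-08), and TIA1 fell by 0.73 ± 0.16 (adjusted p = 0.00164).

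Among kinases, phosphatase subunits and partners that act on ZFP36, IER5 or BTG proteins, 7 of 15 were higher and 5 lower at 6 h (median 0.02), where 27.8% of all genes were called higher and 29.4% lower. PPP2R2D, a regulatory subunit of PP2A, was 7.62-fold higher at 3 h (adjusted p = 4.12e-11). RPS6KA1, the kinase RSK1, was 2.16-fold lower then (adjusted p = 1.68e-05). Of 10 tested receptor partners and coregulators of the NR4A proteins, 4 were higher and 5 lower at 6 h (median -0.36), against the same shares of all genes. NCOA3, a coactivator, rose by 1.23 ± 0.10 on the log2 scale (adjusted p = 2.20e-07), NCOR1, a corepressor, rose by 0.87 ± 0.09 (adjusted p = 1.26e-06), and STK11, the kinase LKB1, fell by 1.29 ± 0.15 (adjusted p = 5.77e-06).

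The mRNAs listed as targets of the ZFP36 family were mostly higher. Of 25 tested, 3 were higher and 0 lower after 0.5 h, 10 and 1 after 1.5 h, 16 and 3 after 3 h, 18 and 3 after 6 h, 17 and 5 after 24 h, 17 and 6 after 48 h, and 19 and 6 after 72 h. Over all genes the share called in either direction at these times was 0.171, 17.1, 42, 57.2, 58.3, 54.3 and 58.6%. The list's median log2 fold change was 0.24 after 1.5 h, 2.83 after 6 h and 2.14 after 72 h, against -0.03, 0.00 and -0.03 over all genes. TATTTAT was found in 22 of the 24 whose 3′ UTR was read, against 26.8% of genes with an expressed coding transcript. The list was made of mRNAs known as AU-rich, so a high count was built in and is no support for the list. CSF2, the cytokine GM-CSF, had 0 and 1 reads at 0 h and 1296 and 1494 reads at 6 h, at least 1150.0-fold higher with a floor of 3 reads over the 0 h group. VEGFA, the most abundant target with a mean of 421 CPM, was 2.96-fold lower at 6 h (log2 fold change -1.57 ± 0.11, adjusted p = 3.97e-08). PIM1, a survival kinase, fell from 792 ± 134 CPM at 0 h to 76.6 ± 5.84 CPM at 24 h (SD, n = 2; -3.37 ± 0.13, adjusted p = 8.55e-11).

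**Figure D5:**
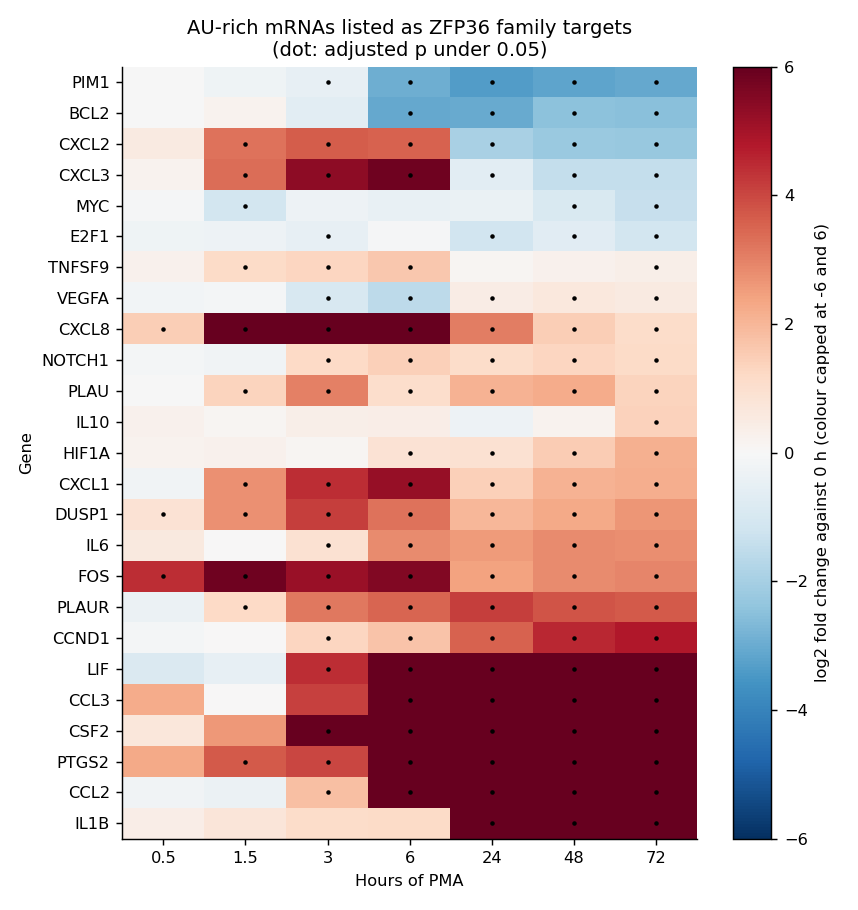
Log2 fold change against 0 h (colour, capped at 6 in either direction) of the 25 tested mRNAs listed as ZFP36 family targets, ordered by their change at 72 h. Dots mark an adjusted p under 0.05; at 72 h all 25 carry one, 19 higher and 6 lower.

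Among 29 other immediate-early genes tested, 13 were higher at 0.5 h and 28 at 6 h, where 1 was lower, against 0.165% of all genes called higher at 0.5 h, and 27.8% higher and 29.4% lower at 6 h. By likeness of course, the gene nearest to NR4A1 among 11269 genes of at least 5 CPM on average was BTG2 (Pearson r of log2 CPM over 16 libraries, 0.98). The nearest gene was BACH2 for NR4A2 (0.98), ZC3H12A for NR4A3 (0.93), SRSF5 for ZFP36 (0.96) and CSF2 for ZFP36L1 (0.99). It was ZNF317 for ZFP36L2 (0.97), EGR1 for IER2 (0.97), KCTD5 for IER5 (0.99), ZNF888 for BTG1 (0.91) and CSRNP1 for BTG2 (0.98). Second in line were RELB, CHAMP1, JUNB, FOSL1, ARID3B, SNAP29, FOS, RHOC, KDM3A and TNFRSF12A in the same order of genes. Within the 10, ZFP36L1 and IER5 ran closest (0.99), then NR4A1 and BTG2 (0.98), ZFP36 went with IER2 (0.92), and ZFP36 had almost no relation to NR4A2 (0.10) or ZFP36L2 (-0.045). These values describe 16 libraries that share 8 time points and their library sizes. Over the means of the 8 time points the nearest gene was another one for NR4A1 (GTF2B), NR4A2 (CHAMP1) and ZFP36 (MIS12). It was also another for ZFP36L1 (CAMTA1), ZFP36L2 (DERL2) and IER5 (CBFB), and the same for the rest.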

How the data were processed

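The 16 K562 libraries were made from total RNA after removal of ribosomal RNA. The deposited tables hold, per the file headers, estimated counts per transcript without normalization and TPM, which the authors' program scales by effective length. Per the submitters' processing notes, Trim Galore 0.4.3 and Salmon were used (HISAT2 2.1.0, SAMtools 1.9, deepTools 3.0.1, R 3.3.1, DESeq2 and DESeq 1.33.5 are listed as well), and hg19 and hg38 are named without a role. Whether counting used strand is not given in the sources used here.

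Transcripts were matched to GENCODE release 29 (GRCh38) by identifier without version, which assigned 94.1% of them to 35052 genes and left 3.01 to 3.75% of a library's reads out. Of the 55 transcripts of the 10 genes, 45 had the same version in that release, and 3′ UTR sequences are those of the release. Those that differed included NR4A1-204 and NR4A2-201, with on average 48.9 and 66.6% of the reads of their genes. Gene counts are the rounded sums of the estimated counts of a gene's transcripts, as whole numbers. Genes were tested in R 4.3.3 with edgeR 4.0.16 (TMM factors 0.854 to 1.139, filterByExpr, quasi-likelihood test, all 8 time points in 1 fit with 8 residual degrees of freedom, prior count 0.125). P-values were adjusted by Benjamini-Hochberg over 17559 genes within each contrast. The contrasts were 7 times against 0 h, 6 steps between neighbouring times, and 72 h against 1.5 h. An exact permutation test of 2 libraries against 2 gives at least p = 0.333, so calls depend on the spread that edgeR estimates across genes. The test was tested on simulated data before use.

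The 10 genes, the lists and the tests were chosen with earlier results of these data known. All 10 genes are named. From each list the gene with the highest mean CPM and the called genes with the largest rise and fall are named, with CPM taken relative to TMM-scaled totals; 1 of these genes and 1 marker are not reported here. For each of the 10, the 2 genes with the highest correlation over 16 libraries are named. With totals of 27285773 to 54056289 reads, a floor of 3 reads was 0.0623 to 0.128 CPM on that scale, which covers counting error only. The alternatives were other size factors, library totals, a looser and a stricter filter, DESeq2 1.42.0, counts derived from TPM, the replicate number as a block, a GC trend removed, fits of single contrasts, a threshold of 0.01, TPM over matched transcripts, and each library left out.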

Additional observations from a re-analysis of the deposited data

Results flagged for a closer look

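For 8 of the 10 genes the change against 0 h differed between 1.5 and 72 h by the direct test of 72 h against 1.5 h (edgeR's quasi-likelihood test, adjusted over all genes, 2 libraries against 2), which called 57.2% of all genes. The log2 difference, 72 h minus 1.5 h, was -0.97 for NR4A1 (adjusted p = 3.55e-05), -0.81 for NR4A3 (adjusted p = 0.00542), -2.13 for ZFP36 (adjusted p = 1.71e-06) and -0.93 for IER2 (adjusted p = 0.000267), each lower at 72 h. It was 2.59 for NR4A2 (adjusted p = 6.61e-11), 2.59 for ZFP36L1 (adjusted p = 3.64e-09), 0.84 for ZFP36L2 (adjusted p = 1.78e-05) and 1.40 for IER5 (adjusted p = 4.63e-07), each higher at 72 h. The NR4A3 difference did not pass without replicate 1 of 1.5 h (-0.66, adjusted p = 0.0607). In both the NR4A and the ZFP36 family some members were lower and others higher.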

How the results depend on the processing

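Of 2085 values of single genes under other settings, 1926 kept their direction and their side of the threshold, 52 lost the call, 69 gained one, 38 were uncalled values that changed sign, and 0 called values reversed. The count at 0.5 h (3) depended most on the settings: 7 without a low-count filter, where 1538 of 26879 genes were called (30 of 17559 otherwise), 5 with DESeq2 (123 genes), with counts derived from TPM, with the GC trend removed, and with that and the replicate block, 1 with only those time points fitted, and 2 to 5 with a library left out (3585 of 18033 genes without replicate 1 of 0 h). The count was 5 in all 4 fits that left out a library of the step from 0.5 to 1.5 h (otherwise 8). For 1.5 to 3 h (5) it was 8 with library totals, 8 with the GC trend removed and 9 with that and the block. For 24 to 48 h (1) it was 3 with library totals, 2 with at least 10 reads in every library, 2 with DESeq2, 2 with the GC trend removed, 3 with that and the block, and 4 with only those time points. For 48 to 72 h (0) it was 1 (NR4A2, lower) with the GC trend removed, with or without the block. The cause was not tested. With a library left out, the counts were 8 to 9 at 1.5 h, 9 to 10 at 3 h, 10 at 6 h, 8 to 10 at 24 h, 10 at 48 and 72 h, 4 to 5 for the step 1.5 to 3 h, 4 to 6 for 3 to 6 h, 8 for 6 to 24 h, 1 for 24 to 48 h, 0 for 48 to 72 h, and 7 to 8 for 72 h against 1.5 h. A time point left with 1 library was assumed to vary like the others. Over 28 pairs of time points the replicate differences correlated at -0.118 to 0.211 (14 over 0.1). The main fit therefore used no pairing, which does not show that the libraries were unpaired. For long transcripts, length exceeded effective length by 210.2 to 221.4 bases in replicate 1 from 0.5 to 72 h, on average per library. In replicate 2 it did so by 229.7 to 248.7 bases. At 0 h the order was the other way, with 217.4 bases in replicate 1 and 199.4 in replicate 2. The part of this difference in the changes against 0 h was not tested. The replicate block gave 4 calls at 0.5 h, 10 for 0.5 to 1.5 h and 6 for 1.5 to 3 h, and the same counts elsewhere. Depth limits NR4A3 most, with 4 and 8 reads at 0 h.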

Other observations

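Among the mRNAs listed as ZFP36 family targets, a pair of neighbouring chemokine genes changed direction with time. They were singled out after their values were seen. CXCL2 was higher than at 0 h at 6 h (log2 fold change 3.52 ± 0.11, adjusted p = 1.71e-11, edgeR's quasi-likelihood test, 2 libraries against 2) and lower at 72 h (-2.29 ± 0.13, adjusted p = 3.69e-09). CXCL3 was 5.82 ± 0.11 higher at 6 h (adjusted p = 3.1e-13) and 1.45 ± 0.11 lower at 72 h (-1.45 on the log2 scale, adjusted p = 1.0e-07). CXCL8 fell back without going below 0 h, with 8.08 ± 0.18 at 6 h (adjusted p = 6.13e-13) and 1.11 ± 0.15 at 72 h (adjusted p = 2.90e-05). CCND1, which encodes cyclin D1, kept rising, from 1.70 ± 0.10 at 6 h (adjusted p = 5.7e-09) to 4.82 ± 0.11 at 72 h (adjusted p = 4.67e-13). TATTTAT was found 8 times in the 3′ UTR of CXCL2, 3 times in CXCL3, 4 times in CXCL8 and 1 time in CCND1.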
